A study of Homo sapiens with 6 samples.

Results

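The genes described here carry glucose into the cell, commit it to glycolysis and decide what happens to the pyruvate at the end. They are the glucose transporter SLC2A1 (GLUT1), the hexokinases HK1 and HK2, the phosphofructokinase activator PFKFB3, the enolases ENO1 and ENO2, the lactate dehydrogenase subunits LDHA and LDHB, and the lactate transporters SLC16A1 (MCT1) and SLC16A3 (MCT4). The 10 genes were taken by name, with earlier results of these data known, and isoforms of the same step were set against each other. Signals of 8 of them were read, among 18372 genes in all. SLC16A1 and SLC16A3 had no probe set with a single gene symbol and were not analysed here. Each of the 8 genes was read by 1 probe set, the only one with that symbol alone.

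The cells were A375, an established human melanoma line. One group was transfected with siFAH, small interfering RNA against FAH, the last enzyme of tyrosine breakdown (3 arrays). The other group received negative control siRNA (3 arrays). Both groups were harvested 72 h after transfection, and each group held 3 samples that the submitters call biological replicates. The labels do not say which of the study's FAH siRNAs was used, and with 1 group of siFAH cells the loss of FAH and other effects of the reagent cannot be told apart. Total RNA was read on Affymetrix Human Gene 1.0 ST arrays as log2 signals, so a difference of 1 is a doubling. Signals of different probe sets are not compared as levels, because each probe set has its own brightness.

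In most tissues, hexokinase traps glucose as glucose phosphate, phosphofructokinase commits it to breakdown, enolase makes phosphoenolpyruvate, and lactate dehydrogenase converts pyruvate and lactate into each other. Several steps have a widespread isoform and a more restricted or inducible one. HK1 and ENO1 are found in most cells, HK2 is typical of muscle, fat and many tumors, and ENO2 of neurons and neuroendocrine cells. LDHA favors the making of lactate and LDHB its use. Genes of this pathway are known targets of the hypoxia-inducible factors and of MYC, and tumor cells often run the pathway at a high rate even with oxygen.

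The short DNA words read by those factors were looked up in the 250 bases before each transcription start of the 8 genes, because HIF1A and MYC are among the genes measured below. The words were ACGTG, a form of the core of the hypoxia response element, and CACGTG, the E-box bound by MYC with MAX. That core also occurs as GCGTG, which was not searched. ACGTG and CACGTG were searched on both strands, and every CACGTG also holds an ACGTG. RefSeq (GRCh38.p14) gave 17 such windows for the 8 genes. At least 1 match to ACGTG was found in 5 windows of 4 genes, against 18.5% of 35116 windows and 21.7% of 27305 genes in the whole table. CACGTG was found in 3 of the 17 windows, against 6.3% of all windows. The 5 windows with a match are printed 5′ to 3′ on the strand of the gene, with each match in capitals (CACGT is ACGTG read on the other strand). HK2 has a pair of starts, with windows at chr2:74833877-74834126 and chr2:74834920-74835169. ENO2 lies at chr12:6914330-6914579, LDHA at chr11:18394313-18394562 and PFKFB3 at chr10:6202682-6202931, all on the plus strand.
HK2, first start: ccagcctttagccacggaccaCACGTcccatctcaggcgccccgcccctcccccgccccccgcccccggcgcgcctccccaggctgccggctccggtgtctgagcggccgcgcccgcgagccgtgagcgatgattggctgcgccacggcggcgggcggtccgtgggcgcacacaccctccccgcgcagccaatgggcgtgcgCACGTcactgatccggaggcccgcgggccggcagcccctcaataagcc
HK2, second start: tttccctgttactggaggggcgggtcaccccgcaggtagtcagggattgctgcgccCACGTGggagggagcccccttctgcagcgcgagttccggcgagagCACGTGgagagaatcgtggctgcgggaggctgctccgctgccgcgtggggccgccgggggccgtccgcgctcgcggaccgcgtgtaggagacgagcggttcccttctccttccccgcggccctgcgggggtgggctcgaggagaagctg
ENO2: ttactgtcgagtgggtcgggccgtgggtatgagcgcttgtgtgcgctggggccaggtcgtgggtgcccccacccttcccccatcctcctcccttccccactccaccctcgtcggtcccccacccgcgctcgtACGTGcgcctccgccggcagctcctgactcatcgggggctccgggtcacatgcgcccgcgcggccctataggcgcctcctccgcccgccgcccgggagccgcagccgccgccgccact
LDHA: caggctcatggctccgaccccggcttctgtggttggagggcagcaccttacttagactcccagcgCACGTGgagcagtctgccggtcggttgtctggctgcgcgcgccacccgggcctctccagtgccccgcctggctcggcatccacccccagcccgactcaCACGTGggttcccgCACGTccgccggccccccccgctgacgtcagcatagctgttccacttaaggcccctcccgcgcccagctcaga
PFKFB3: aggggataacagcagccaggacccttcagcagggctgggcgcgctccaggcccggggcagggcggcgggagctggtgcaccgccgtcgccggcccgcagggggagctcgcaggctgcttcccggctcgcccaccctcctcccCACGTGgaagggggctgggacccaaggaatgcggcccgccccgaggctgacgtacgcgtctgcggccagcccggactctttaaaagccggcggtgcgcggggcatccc
The matches begin 229 and 48 bases before the first HK2 start and 194 and 149 bases before the second. They begin 118 bases before the ENO2 start, 185, 87 and 73 bases before the LDHA start, and 108 bases before the PFKFB3 start. A match describes these letters and is not evidence that a factor binds there. No match to ACGTG was found in the windows of HK1, ENO1, LDHB and SLC2A1, or at the other starts of LDHA and PFKFB3. GCGTG was not searched in any window, so these windows may still hold that form of the core.

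FAH itself had signals of 4.92, 4.60 and 4.92 in the siFAH arrays and 5.48, 5.59 and 5.68 in the control arrays. All siFAH arrays lay below all control arrays, and the log2 fold change was -0.77 (SE, the standard error, 0.098, adjusted p = 0.00213 by limma). Over the 6 arrays, medians ran from 5.003 to 5.038 with siFAH and from 4.922 to 4.996 with control siRNA. Of 10 melanoma and melanocyte markers measured, MCAM (log2 fold change -0.57) and PRAME (-0.33) were called lower and 0 higher, and the part of this in the results below was not tested. SOX10 averaged 8.36 with siFAH and 8.56 with control siRNA, while the pigment genes PMEL, MLANA, TYR and TYRP1 were below the array medians, with group means from 2.87 to 3.88. Of 14 epithelial, blood and endothelial markers, 0 were called by limma, and apart from the keratin KRT18 (8.44 with siFAH and 8.67 with control siRNA) their group means were at most 5.64.

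HK2, ENO2 and LDHA, 1 isoform of each of the 3 isoform pairs that could be read, fell in siFAH cells. Their log2 fold changes were -0.51, -0.46 and -0.43. The partners HK1, ENO1 and LDHB were at -0.21, -0.27 and -0.16 and did not pass the test, nor did SLC2A1 at -0.25. PFKFB3 was the exception in sign, at 0.23, and it did not pass either. Thus 3 of 8 genes were called, all of them lower, where 9.86% of all genes were called and 6.38% were called lower. Calls were more common among bright genes. In steps 7, 9 and 10 of signal, described below, which hold the 8 genes, 11.5%, 17.9% and 27.5% of genes were called. Called lower in these steps were 7.95%, 13.0% and 18.9%. In 7 of 8 genes no siFAH array overlapped the control arrays, which was so for 32.0% of all genes. Fold changes were negative in 7 of 8 genes and in 48.6% of all genes, a share that was higher among bright genes, as given below. The median fold change of the 8 genes was -0.26 on the log2 scale, and that of all genes was 0.0050. All 8 genes had an unadjusted p under 0.05, as did 26.2% of all genes. The shares without overlap and with an unadjusted p under 0.05 were not split by brightness. The genes were chosen with earlier results of these data known, so these counts are not an independent test. Calls are at an adjusted p under 0.05 by limma, with Benjamini-Hochberg adjustment over all 18372 genes.

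**Figure D1:**
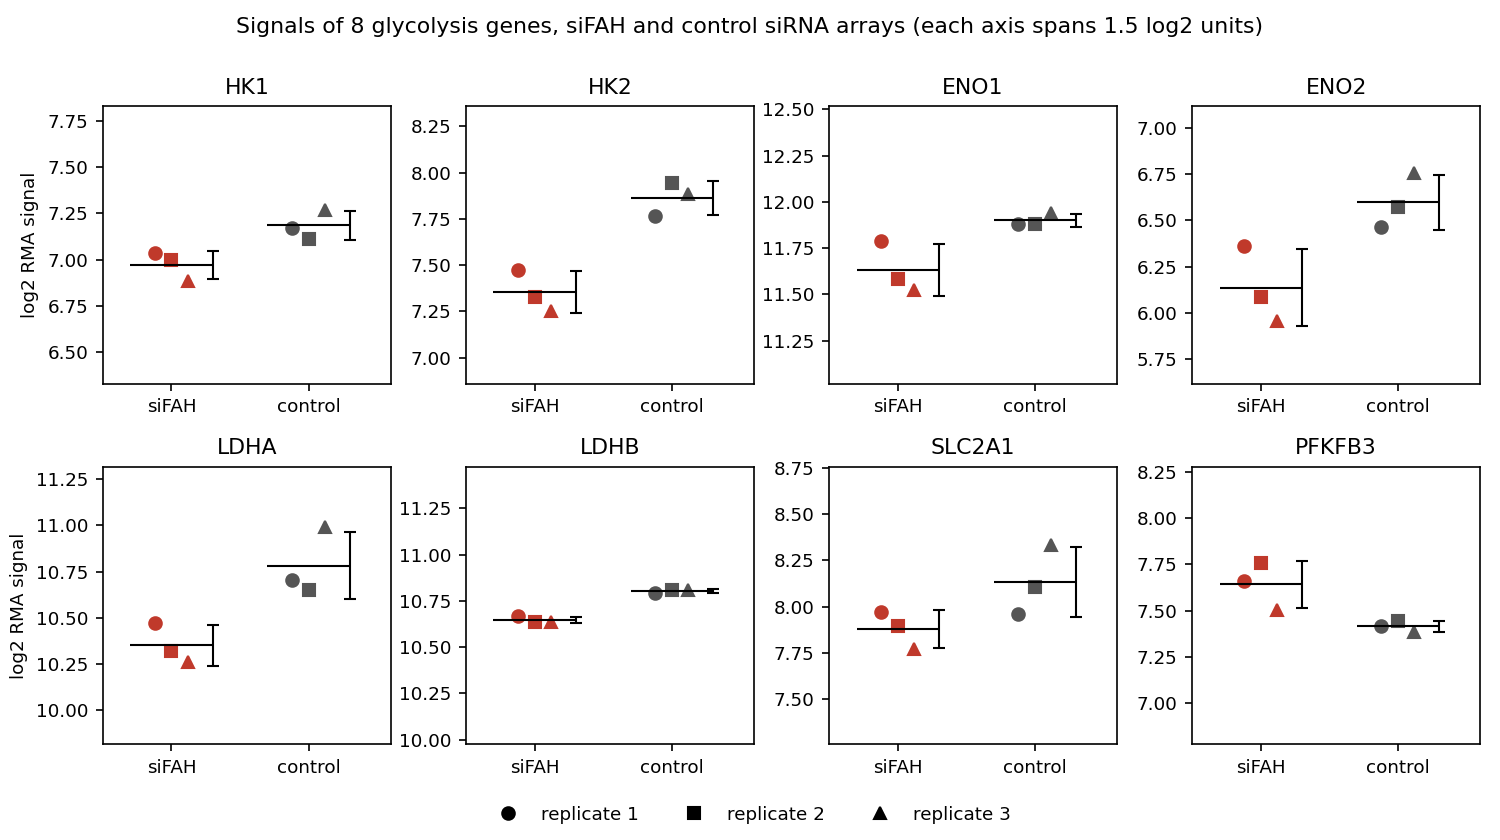
Log2 signal (vertical axis) of 8 genes in each array, with siFAH on the left in red and control siRNA on the right in grey. Symbols mark the replicate number, lines the group mean and bars 1 SD (n = 3 each). In HK2, ENO2 and LDHA, and also in HK1, ENO1 and LDHB, all siFAH arrays lie below all control arrays.

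SLC2A1 encodes the glucose transporter that most cells use for basal uptake. Its signals were 7.97, 7.90 and 7.77 in siFAH arrays and 7.96, 8.10 and 8.34 in control arrays (means 7.88 ± 0.10 with siFAH and 8.13 ± 0.19 with control siRNA, SD, n = 3). The groups overlapped, since siFAH replicate 1 exceeded control replicate 1, and the highest value was control replicate 3. The log2 fold change was -0.25 (SE 0.098, 95% interval -0.47 to -0.04, adjusted p = 0.132 by limma). Leaving out control replicate 3 gave -0.15, leaving out control replicate 1 gave -0.34, and the adjusted p ranged from 0.0528 to 0.357 over all alternatives. Of the 12 other transporters of the SLC2A family, 0 were called by limma and 0 had an unadjusted p under 0.05. SLC2A3 (GLUT3), a high-affinity transporter, had a log2 fold change of -0.23 (adjusted p = 0.192), which was -0.13 without control replicate 3. SLC2A11 was at 0.16 (adjusted p = 0.278), and at 0.075 without siFAH replicate 3.

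The hexokinases add the first phosphate to glucose. HK2 had signals of 7.48, 7.33 and 7.25 in siFAH arrays and 7.76, 7.94 and 7.89 in control arrays. Even the highest siFAH array was 0.29 below the lowest control array. HK2 thus fell by 29.8% in siFAH cells, with group means of 7.35 ± 0.11 with siFAH and 7.86 ± 0.091 with control siRNA (SD, n = 3) and a log2 fold change of -0.51 (SE 0.081, 95% interval -0.69 to -0.33, adjusted p = 0.00526 by limma). It stayed below the threshold when any 1 array was left out (adjusted p 0.00447 to 0.0290). HK1 had signals of 7.03, 7.00 and 6.89 in siFAH arrays and 7.17, 7.11 and 7.27 in control arrays. These groups were also apart, but the nearest arrays, siFAH replicate 1 and control replicate 2, differed by 0.079. The log2 fold change of HK1 was -0.21 (SE 0.073, 95% interval -0.37 to -0.05), and its adjusted p of 0.0957 by limma missed the threshold. HK1 passed with dim genes left out (adjusted p = 0.0406 by limma), in a range of 0.0406 to 0.284 over all alternatives. Of the other genes of this step, HK3, a hexokinase of blood cells, was at 0.06 and the hexokinase-domain gene HKDC1 at -0.02, and neither was called (adjusted p = 0.570 and 0.872). The group means of HK3 and HKDC1, from 4.12 to 4.19, were below the array medians. The sign of the HKDC1 value turned when siFAH replicate 2 or control replicate 1 was left out.

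PFKFB3 makes fructose bisphosphate of the kind that activates phosphofructokinase, and it is the family member with the strongest bias toward synthesis. Its signals were 7.66, 7.76 and 7.50 in siFAH arrays and 7.42, 7.44 and 7.38 in control arrays. All siFAH arrays were above all control arrays, and the siFAH arrays were the more spread (SD 0.13 with siFAH and 0.028 with control siRNA, n = 3). The log2 fold change was 0.23 (SE 0.078, 95% interval 0.06 to 0.40, adjusted p = 0.0933 by limma). The same gene passed the test at 0.30 after quantile normalization and at 0.31 after cyclic loess. After centring each array on its median PFKFB3 was at 0.17 and did not pass (adjusted p = 0.217 by limma). Its adjusted p ranged from 0.0308 to 0.265 over all alternatives. Of the 4 other enzymes that act on this activator, 2 were called, both lower, where 6.38% of all genes were called lower. TIGAR, which breaks the activator down, had signals of 5.49, 5.48 and 5.53 in siFAH arrays and 5.84, 5.99 and 6.05 in control arrays. TIGAR fell by 27.3%, with a log2 fold change of -0.46 (SE 0.073, adjusted p = 0.00544 by limma). PFKFB4, another bifunctional enzyme of the family, had signals of 6.48, 6.31 and 6.26 in siFAH arrays and 6.66, 6.74 and 6.79 in control arrays. Its log2 fold change was -0.38 (SE 0.078, adjusted p = 0.0160 by limma). PFKFB1 and PFKFB2 were at -0.20 and -0.11 and were not called (adjusted p = 0.125 and 0.573), and both were named after their values were seen. Within this group of 5 genes PFKFB3 alone had a positive fold change, also after each of the 3 other normalizations.

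Enolase makes phosphoenolpyruvate, the last intermediate before pyruvate. ENO2 had signals of 6.36, 6.09 and 5.96 in siFAH arrays and 6.46, 6.57 and 6.76 in control arrays. The groups were apart by 0.10 between siFAH replicate 1 and control replicate 1, and the other arrays lay farther apart. ENO2 fell by 27.4%, with group means of 6.14 ± 0.21 with siFAH and 6.60 ± 0.15 with control siRNA (SD, n = 3) and a log2 fold change of -0.46 (SE 0.11, 95% interval -0.70 to -0.22, adjusted p = 0.0278 by limma). The call was lost without siFAH replicate 2 (adjusted p = 0.0878), siFAH replicate 3 (0.103), control replicate 2 (0.0732) or control replicate 3 (0.104), within a range of 0.00894 to 0.202 over all alternatives. ENO1, one of the brightest probe sets, had signals of 11.79, 11.58 and 11.52 in siFAH arrays and 11.88, 11.88 and 11.94 in control arrays. The control arrays were tight (SD 0.034) and siFAH replicate 1 was the nearest to them. The log2 fold change of ENO1 was -0.27 (SE 0.080, 95% interval -0.45 to -0.09, adjusted p = 0.0620 by limma). Without siFAH replicate 1 it was -0.35 and passed (adjusted p = 0.0250, in a range of 0.0247 to 0.206 over all alternatives). The muscle enolase ENO3, which was named after its values were seen, had a log2 fold change of -0.28 with overlapping arrays (adjusted p = 0.199).

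LDHA and LDHB encode the subunits that combine into the lactate dehydrogenase tetramers of most tissues. LDHA had signals of 10.47, 10.32 and 10.26 in siFAH arrays and 10.71, 10.65 and 10.99 in control arrays. The groups did not overlap, and control replicate 3 stood above the other control arrays. LDHA fell by 25.8%, with group means of 10.35 ± 0.11 with siFAH and 10.78 ± 0.18 with control siRNA (SD, n = 3) and a log2 fold change of -0.43 (SE 0.098, 95% interval -0.65 to -0.21, adjusted p = 0.0233 by limma). Its call was lost without siFAH replicate 2 (adjusted p = 0.0756), siFAH replicate 3 (0.0896) or control replicate 3 (0.0646), within a range of 0.00835 to 0.180 over all alternatives. LDHB had the tightest signals of the 8 genes, at 10.67, 10.64 and 10.64 in siFAH arrays and 10.79, 10.81 and 10.81 in control arrays. Every siFAH array was below every control array by more than the spread within either group (SD 0.018 with siFAH and 0.010 with control siRNA, n = 3). Its log2 fold change of -0.16 (SE 0.063, 95% interval -0.30 to -0.02) did not pass (adjusted p = 0.139 by limma, which draws each gene's variance toward that of all genes). After quantile normalization LDHB was at -0.26 and passed (adjusted p = 0.0343 by limma), in a range of 0.0343 to 0.290 over all alternatives. The 4 other lactate dehydrogenase genes, among them the testis form LDHC at 0.08 and LDHAL6B at 0.05, were not called (adjusted p = 0.643 and 0.698), and the LDHAL6B value turned negative under each of the 3 other normalizations. Group means of LDHC and LDHAL6B, from 2.91 to 3.90, were below the array medians.

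Besides SLC16A1 and SLC16A3, 6 genes of monocarboxylate transport were read, 4 of them carriers of lactate and related acids and the others, BSG and EMB, membrane glycoproteins that accompany such carriers. Of these 6, 0 were called by limma. SLC16A7 (MCT2), a high-affinity carrier, had signals of 6.32, 6.13 and 6.23 in siFAH arrays and 6.35, 6.40 and 6.56 in control arrays. These did not overlap, with a log2 fold change of -0.20 (adjusted p = 0.139 by limma), the 1 value of the 6 with an unadjusted p under 0.05. The sodium-coupled carrier SLC5A12 was at -0.05 (adjusted p = 0.759), and its sign turned without siFAH replicate 2. Its group means of 4.18 with siFAH and 4.24 with control siRNA were below the array medians.

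Whether the isoforms of a step changed by different amounts was asked from the difference of their signals within each array. HK1 minus HK2 was -0.44, -0.33 and -0.37 in siFAH arrays and -0.59, -0.83 and -0.62 in control arrays. The difference thus shifted toward HK1 by 0.30 (SE 0.081, 95% interval 0.07 to 0.52), and the groups did not overlap. ENO1 minus ENO2 was 5.43, 5.50 and 5.57 in siFAH arrays and 5.42, 5.31 and 5.18 in control arrays. Here siFAH replicate 1 and control replicate 1 nearly met, and the shift of 0.19 toward ENO1 had an interval that reached 0 (SE 0.080, 95% interval -0.03 to 0.42). LDHA minus LDHB was -0.19, -0.31 and -0.38 in siFAH arrays and -0.09, -0.16 and 0.18 in control arrays. Its shift of -0.27 toward LDHB also had an interval that reached 0 (SE 0.12, 95% interval -0.59 to 0.05). In each of the 3 pairs the two-sided exact permutation test over the 6 arrays gave p = 0.1, the smallest it can give for this design, and p = 0.1 after adjustment over the 3 pairs. No pair can therefore pass a threshold of 0.05 by that test. The sign of each shift was kept in all 11 alternatives. Of these, centring each array on its median, the mean of probe sets and the replicate block leave the shifts as they are. In those the sign could not turn. Ranges were 0.22 to 0.34 for hexokinases, 0.13 to 0.25 for enolases and -0.34 to -0.17 for lactate dehydrogenases. After quantile normalization the permutation test of LDHA minus LDHB gave p = 0.2. The SLC16A1 and SLC16A3 pair was not analysed here.

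**Figure D2:**
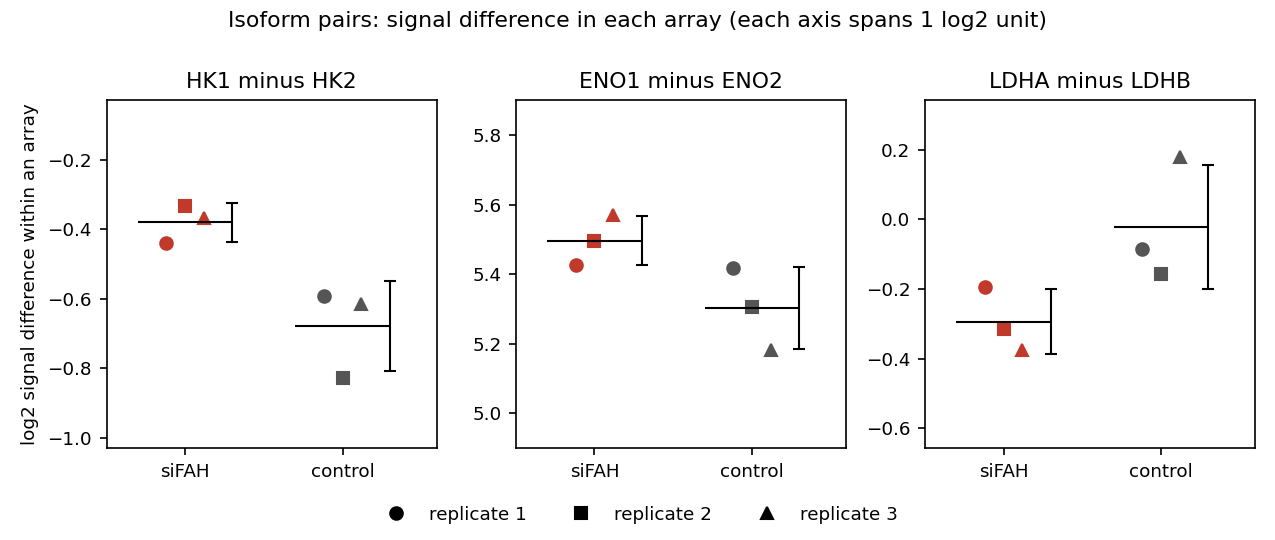
Log2 signal difference between 2 isoforms within each array (vertical axis), with siFAH on the left and control siRNA on the right. Symbols mark replicates, lines the group mean and bars 1 SD (n = 3 each), and HK1 minus HK2 lies between -0.44 and -0.33 with siFAH and between -0.83 and -0.59 with control siRNA.

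Across the rest of the pathway, with dim genes included, the share of genes called was near that of all genes. Of 78 other listed genes of glucose transport, glycolysis, pyruvate use and their regulators, 72 were measured, and 7 were called (9.72%, next to 9.86% of all genes). Of these 7, 6 were lower and 1 was higher, and the median of the 72 log2 fold changes was -0.04. The 72 include genes below the array medians, such as HK3, HKDC1, LDHC, LDHAL6B and SLC5A12, and calls were rare among dim genes. In step 1 of signal, the dimmest, 2.01% of all genes were called, against 27.5% in step 10. The 72 genes were not split by brightness, so whether the brighter ones differ from genes of like signal was not tested. All 7 measured enzymes between hexokinase and triose phosphates had negative fold changes, from -0.28 to -0.02, next to 48.6% of all genes. PFKL, named after its values were seen, was above 0 after quantile normalization and cyclic loess. The share of negative fold changes was higher among bright genes, and the 7 enzymes were not split by brightness. By limma 0 of the 7 were called and 2 had an unadjusted p under 0.05, next to 9.86% and 26.2% of all genes. The 7 enzymes include GPI, which turns glucose phosphate into fructose phosphate (-0.28, adjusted p = 0.0889), and the triose isomerase TPI1 (-0.27, adjusted p = 0.275). The TPI1 value was -0.12 without siFAH replicate 3 and -0.43 without siFAH replicate 1. Of 10 further enzymes of lower glycolysis, 1 was called. It was GAPDH, which oxidizes the triose phosphate, with signals of 12.71, 12.49 and 12.53 in siFAH arrays and 12.81, 12.84 and 12.89 in control arrays. Its log2 fold change was -0.27 (SE 0.076), with an adjusted p of 0.0485 by limma, just inside the threshold, and the call was lost after quantile normalization (adjusted p = 0.143) and cyclic loess (0.0530), within a range of 0.0163 to 0.164 over all alternatives. GAPDH, ENO1 and LDHA have many processed pseudogenes, and RNA of such copies could not be told apart here.

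**Figure D3:**
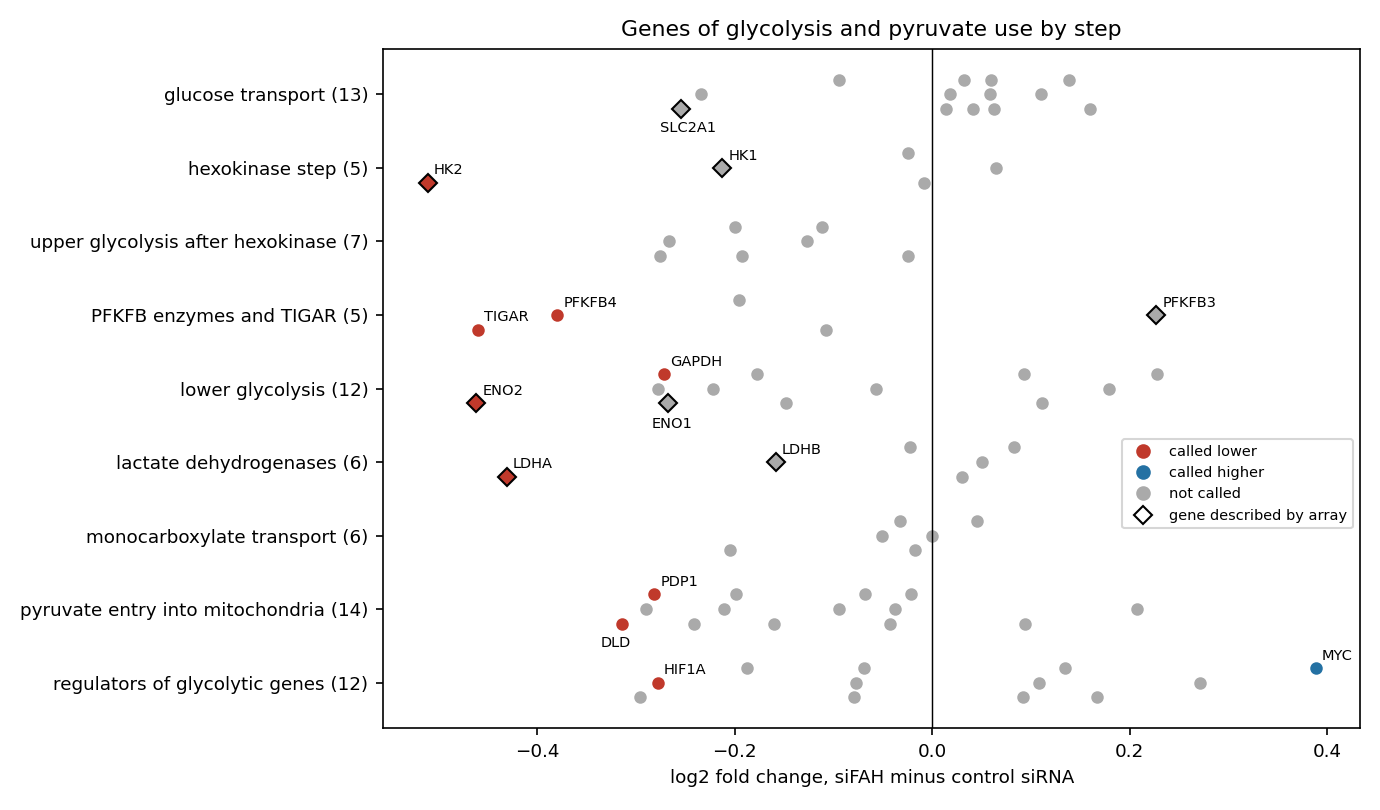
Log2 fold change with siFAH over control siRNA (horizontal axis) of every measured gene of 9 lists, one row per list with the number measured in brackets. Diamonds are the 8 genes described by array, red points were called lower and the blue point, MYC at 0.39, was called higher at an adjusted p under 0.05.

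Where pyruvate enters mitochondria, 2 of 14 measured genes (14.3%) were called, both lower, next to 9.86% of all genes called and 6.38% called lower. Fold changes were negative in 12 of the 14 (10 after quantile normalization or cyclic loess), next to 48.6% of all genes. These shares of all genes were higher among bright genes, and the 14 genes were not split by brightness. DLD, a subunit of the pyruvate dehydrogenase complex, had a log2 fold change of -0.31 (SE 0.068, adjusted p = 0.0190). PDP1, the phosphatase that switches that complex on, was at -0.28 (SE 0.071, adjusted p = 0.0354). Of 12 regulators, 2 were called (16.7%, next to 9.86% of all genes), and 6 of the 12 had negative fold changes. HIF1A fell and MYC rose, and the 12 were not split by brightness. HIF1A, the oxygen-regulated subunit of the hypoxia-inducible factor, had signals of 9.02, 9.00 and 8.95 in siFAH arrays and 9.24, 9.21 and 9.35 in control arrays, with a log2 fold change of -0.28 (SE 0.068, adjusted p = 0.0312). MYC had signals of 7.22, 7.30 and 7.27 in siFAH arrays and 6.88, 6.86 and 6.88 in control arrays, with a log2 fold change of 0.39 (SE 0.064, adjusted p = 0.00597). All of these values are from limma. MYC and TIGAR were called whichever array was left out, and they were the 2 of the 7 that remained without siFAH replicate 2 or 3, or control replicate 2 or 3. GAPDH and PDP1 were also lost without control replicate 1, and HIF1A without siFAH replicate 1. PDP1 lost its call after quantile normalization (adjusted p = 0.0673 by limma) and cyclic loess (0.107), within a range of 0.0121 to 0.131 over all alternatives. HIF1A lost its call after cyclic loess (adjusted p = 0.0710 by limma), within a range of 0.0102 to 0.118.

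The sign and size of a fold change moved with brightness in these arrays. With all genes split by mean signal into 10 steps of like size, the median log2 fold change was 0.048 in step 1, the dimmest, and -0.11 in step 10, where 18.9% of genes were called lower. ENO1, LDHA, LDHB and SLC2A1 were in step 10, HK1, HK2 and PFKFB3 in step 9, and ENO2 in step 7. Fold changes below 0 were found in 69.6% of the genes in step 9, 69.1% in step 10 and 57.6% in step 7. Beside the median of its own step, HK2 was lower by a log2 difference of -0.42, ENO2 by -0.43 and LDHA by -0.33. In their own steps, 2.12%, 1.52% and 6.31% of genes had a lower fold change than HK2, ENO2 and LDHA. For LDHB the difference was -0.053, and 38.7% of genes of like brightness were lower. ENO1 (19.8%), SLC2A1 (22.0%) and HK1 (22.5%) had lower shares than LDHB but higher ones than the called genes. PFKFB3 was 0.32 above the median of its step, and 6.70% of that step were higher. The part of brightness in these fold changes was not tested.

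**Figure D4:**
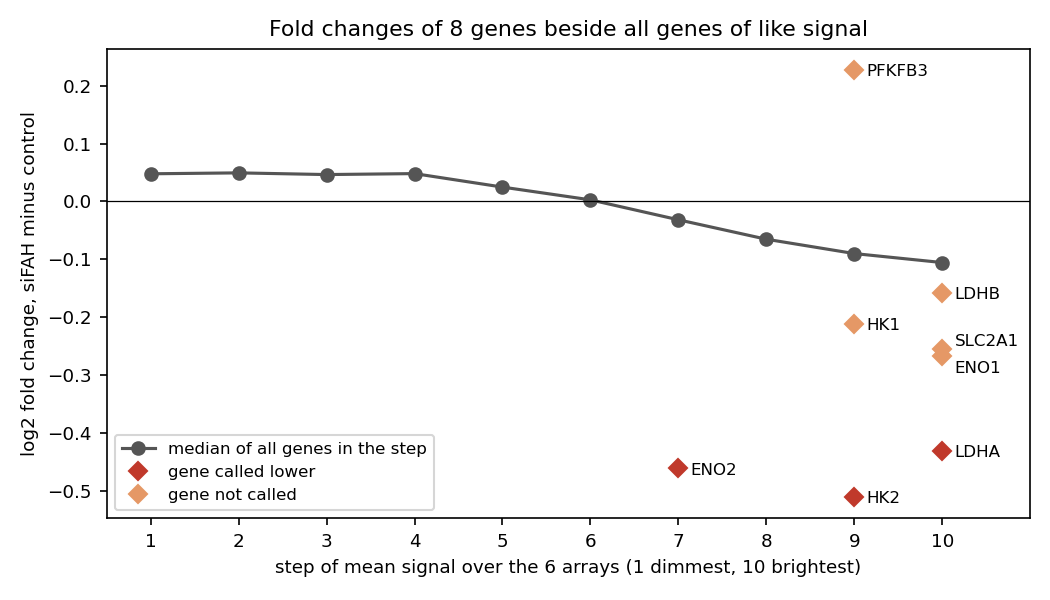
Log2 fold change with siFAH over control siRNA (vertical axis) against the step of mean signal over the 6 arrays (horizontal axis, 1 dimmest and 10 brightest). The grey line joins the medians of all genes in each step and slopes from 0.048 to -0.11, and diamonds are the 8 genes, red where called.

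The arrays of a group did not vary independently from gene to gene. In all 7 genes with a negative fold change, siFAH replicate 1 was the highest and siFAH replicate 3 the lowest siFAH array. Among all genes called lower, these orders were seen in 58.6% and 56.7%, and among all genes in 37.8% and 35.4%. Control replicate 3 was the highest control array in 5 of the 7, and in 83.9% of all genes called lower. The 7 genes are thus not 7 separate readings of the knockdown. The RNA came from whole cultures, in which fewer cells expressing a gene and less of its RNA per cell cannot be told apart.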

How the data were processed

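A375 cells were read on 6 arrays, 3 with siFAH and 3 with control siRNA. The authors deposited log2 signals made by RMA (background correction, normalization between arrays, 1 value per probe set), and the RMA version is not given in the sources used here. The sources name different RNA and labeling kits. Of 28829 probe sets, 19291 carry 1 gene symbol in the platform annotation. The brightest probe set per symbol over the 6 arrays was kept, giving 18372 genes. The difference between siFAH and control siRNA was fitted for each gene in limma 3.58.1 (lmFit, eBayes; R 4.3.3), with two-sided p values adjusted by Benjamini-Hochberg over all genes and calls at an adjusted p under 0.05. The script was tested on simulated data. Arrays have no read depth, and 3 arrays per group limit the precision.

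The genes and lists were chosen with earlier results of these data known. Named were the 10 genes, FAH, and from each pathway list every other gene called, or the 2 with the largest change where none was. Genes outside that rule are said to be so where a value or sign is given, or stand only as cell markers or by name. Promoter windows came from RefSeq by symbol. Alternatives were 3 other normalizations, leaving out dim genes, array weights, eBayes with trend and robust, SAM, the methods' t-test, the methods' limits of 1.2-fold and an unadjusted p under 0.05, the mean of probe sets, a replicate block, and leaving out each array. Scanner files were not used here. Python 3.11.15 with matplotlib 3.10.9 drew the figures.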

Additional observations from a re-analysis of the deposited data

How the results depend on the processing

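The 8 genes kept the sign of their fold change in the 3 other normalizations, with array weights and with each array left out. The other alternatives leave these fold changes as they are, so the sign could not turn in them. HK2 lost its call in 1 of the 17 alternatives, the methods' t-test (adjusted p = 0.118). Of the 8 genes, 3 were called in the reported fit, against 5 after quantile normalization, 6 with dim genes left out, 5 with array weights, 0 by the methods' t-test after Benjamini-Hochberg (7 at an unadjusted p under 0.05), 8 by SAM at an unadjusted p and 1 to 4 with 1 array left out. The low end, HK2 alone, came without siFAH replicate 2 or 3 or control replicate 3. Of the 72 other pathway genes, 7 were called, against 15 with dim genes left out, 11 with trend and robust, 11 with array weights, 11 at the methods' limits, 0 by the methods' t-test (14 of all genes), 19 by SAM at an unadjusted p and 2 to 8 with 1 array left out. The share of all genes called was 9.86% in the reported fit and 26.9% with dim genes left out, 15.9% with array weights, 12.7% with trend and robust, 12.6% at the methods' limits, 21.9% by SAM and 9.30% after quantile normalization. Fewer genes are tested where dim genes are left out, and the cause of the other shifts was not tested.

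Same-numbered arrays did not deviate together (correlations -0.18, -0.059 and -0.23 for numbers 1, 2 and 3). The labels do not say whether samples of the same number were prepared together. With 3 arrays per group these correlations cannot decide it. With the number as a replicate block, 1 of the 8 genes (HK2), 2 of the 72 (MYC and TIGAR) and 761 of all genes were called.

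The 3 other normalizations gave LDHAL6B -0.013 (quantile), -0.0036 (centring) and -0.016 (cyclic loess). With 1 array left out, HKDC1 ranged from -0.082 to 0.014 and SLC5A12 from -0.13 to 0.0077. Over all genes, 1172 calls were lower and 639 higher, against 1678 and 416 after centring each array on its median. The pair of SLC16A1 and SLC16A3 was not run. With 1 array left out, counts over all genes ranged from 657 without siFAH replicate 3 to 1845 without control replicate 1, against 1811 with all arrays.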
